A study of Homo sapiens with 33 samples.

Results

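The region set comprised 580 of 14301 merged genomic intervals, or 4.06%, at which the E260A, N278D and Y253A variants of the transcription factor MITF gave strong CUT&Tag peaks and the wild-type protein did not. In each library the 10000 peaks of highest −log10 q on chromosomes 1 to 22 and X were taken as its strong peaks. The 12 lists of WT, E260A, N278D and Y253A were merged wherever peaks shared at least 1 bp, and an interval entered the set when at least 8 of the 9 variant lists and none of the 3 WT lists overlapped it. The rank of a region in a library is the place of its highest peak in that library's whole list, with rank 1 the strongest, so a strong peak has a rank of at most 10000. All 580 regions were also listed as peaks in all 3 WT libraries at ranks beyond 10000. The set therefore held regions of higher rank in the variants, and no region that was a peak in the variants alone.

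MITF is the master regulator of the melanocyte lineage and a lineage oncogene in melanoma. It belongs to the basic helix-loop-helix leucine zipper family, whose members pair through the zipper and touch DNA through the basic region. MITF and its relatives TFEB, TFE3 and TFEC bind E-box words such as CACGTG and CATGTG, and MITF is best known for driving pigment genes and, with its relatives, lysosomal genes.

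CUT&Tag marks the places where an antibody sits on chromatin by tethering a transposase there, and here the antibody was against the HA tag. Every library came from UACC-257, a human melanoma cell line, with the genotype MITF knockdown and doxycycline treatment, which WT and the control libraries shared with the variants. The 11 groups were WT, a group labelled Empty, and 9 variants named K243A, G244E, Y253A, E260A, Q261A, A264C, N278D, rep217A and rep263A, with 3 libraries each made from 400000 cells. What "rep" stands for, the promoter behind the tagged proteins and the MITF left after knockdown are not given in the sources used here. Replicates 2 and 3 of rep217A held identical lists, as did those of rep263A, so each pair was counted as 1 library and 31 distinct libraries remained. The labels do not say whether replicates came from separate cultures, so every p-value here describes the spread among the libraries alone, which may be technical.

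Sequence was at hand only for promoter windows, which ran from 250 bases before to 50 bases after each gene start (RefSeq, GRCh38.p14), and 67 of these windows were touched by the region set. The stretches below are shown because they carry the E-box words on which MITF binding is known to rest, inside regions of the set. Each runs 5′ to 3′ along the strand of the named gene, with the word in capitals, and CACATG is CATGTG read from the other strand. The SLC9A8 to SPATA12 stretches hold CATGTG and the last 3 hold CACGTG.
SLC9A8, chr20:49812667-49812712, plus strand: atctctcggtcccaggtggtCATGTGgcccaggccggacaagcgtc
PRKAG2, chr7:151736445-151736490, minus strand: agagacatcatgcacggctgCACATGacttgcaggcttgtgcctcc
RABGAP1L, chr1:174799501-174799546, plus strand: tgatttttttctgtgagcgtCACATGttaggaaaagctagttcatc
TM4SF19, chr3:196338519-196338564, minus strand: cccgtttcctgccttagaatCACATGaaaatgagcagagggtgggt
SULT1C2, chr2:108288770-108288815, plus strand: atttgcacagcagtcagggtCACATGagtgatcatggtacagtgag
GSX1, chr13:27792416-27792461, plus strand: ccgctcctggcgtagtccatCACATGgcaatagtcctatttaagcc
SPATA12, chr3:57060613-57060658, plus strand: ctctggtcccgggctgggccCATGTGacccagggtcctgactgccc
LOC124907995, chr2:229407235-229407280, plus strand: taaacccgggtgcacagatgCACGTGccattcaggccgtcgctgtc
FAM135A-AS1, chr6:70414080-70414125, minus strand: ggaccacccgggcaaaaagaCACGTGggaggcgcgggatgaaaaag
LOC105369763, chr12:49943013-49943058, plus strand: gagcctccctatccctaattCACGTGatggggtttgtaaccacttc

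In the SLC9A8, PRKAG2, TM4SF19 and SULT1C2 stretches the word is part of TCATGTG on the plus or minus strand, the M-box type of word known from pigment gene promoters. Over the 16991 promoter bases that lay inside the region set, CATGTG occurred 10 times (5.89 per 10 kb) and CACGTG 3 times (1.77 per 10 kb), both strands searched. Over the 1032989 promoter bases inside the 7052 intervals that were strong in all 3 WT lists, the order was the other way round, with CATGTG at 3.13 and CACGTG at 6.99 per 10 kb. TCATGTG, every copy of which also counts as CATGTG, occurred 6 times in the region set (3.53 per 10 kb) against 1.06 per 10 kb in the WT intervals. The word TGACTCA, which AP-1 factors bind, occurred 9 times (5.30 per 10 kb) against 1.03 per 10 kb in the WT intervals. Over the 198613 promoter bases inside the 3954 other intervals that were strong in no WT list, the values were 2.11 per 10 kb for CATGTG, 1.91 for CACGTG, 0.655 for TCATGTG and 1.66 for TGACTCA. The low CACGTG and its place behind CATGTG were thus shared with these intervals and not particular to the set. All are counts of letters in a small and promoter-only share of the intervals, and no test was made of them.

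Counted by window, CATGTG stood in 11 of the 67 promoter windows touched by the region set (16.4%) and in 11.1% of all 34961 windows. CACGTG stood in 4 of the 67 (5.97%), in 7.27% of all windows and in 17.8% of the windows touched by WT intervals. TGACTCA stood in 8 of the 67 (11.9%) and in 4.92% of all windows. GC content was 64.6% in the 67 windows and 66.6% in the windows of the WT intervals, against 57.6% in all windows.

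The set was chosen by peak ranks, so the ranks in WT and the 3 variants are given as a description only. The median rank over the 9 variant lists ran from 335 to 9312 among the 580 regions, with a median of 5710.5, and the median rank over the 3 WT lists ran from 10206 to 67486, with a median of 15649.5. The ratio of the WT to the variant median rank was 3.06 at its median and 45.1 at its highest. In 357 regions all 9 variant lists held a strong peak, and in the other 223 regions 8 did. The variant with the lowest median rank was E260A in 217 regions, Y253A in 212 and N278D in 151, so no single variant led the set.

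The edge of the rule was crowded. Just outside it stood 218 intervals with 7 variant lists and no WT list, with a median variant rank of 7936, and 273 intervals with 8 or 9 variant lists and a single WT list, with a median WT rank of 11045. Just inside it, 106 regions had a best WT rank of at most 11000, while 88 had a best WT rank beyond 20000. Taking 5000 or 20000 strong peaks per list in place of 10000 gave 363 or 908 intervals, of which 88 coincided with the set in each case. A ranking of peaks by fold enrichment gave 389, of which 56 coincided.

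The fold enrichment and −log10 q of a peak are the authors' own values and are given here as a description. Over the 580 regions its median lay between 13.5 and 14.5 in the 3 WT libraries, between 17.3 and 19.5 in the 9 libraries of E260A, N278D and Y253A, and between 16.3 and 16.5 in A264C. It was 15.9 to 18.7 in Q261A and 15.2 and 15.7 in rep263A, below A264C. Over all 14301 intervals the median fold was 15.0 to 16.1 in WT, 16.1 to 17.7 in the 3 variants and 16.6 to 16.9 in A264C. It was 15.3 to 17.5 in Q261A and 14.95 and 15.4 in rep263A. Within its own library the set thus lay above the median of all intervals in every Q261A and rep263A library. It lay below that median in every A264C library. The regions were narrower, with a median of 769 bp, than the WT intervals, at 975 bp, and wider than the 3954 other intervals strong in no WT list, at 654 bp. The 3954 intervals serve below as a comparison, since they too lacked a strong WT peak. They were strong in fewer than 8 variant lists, and 1384 of them in only 1. A median WT rank beyond 20000 was found for 1808 of them and for 150 of the 580 regions. They thus differ from the set in the values the rule used, and gaps to the set cannot be told apart from that choice.

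**Figure D1:**
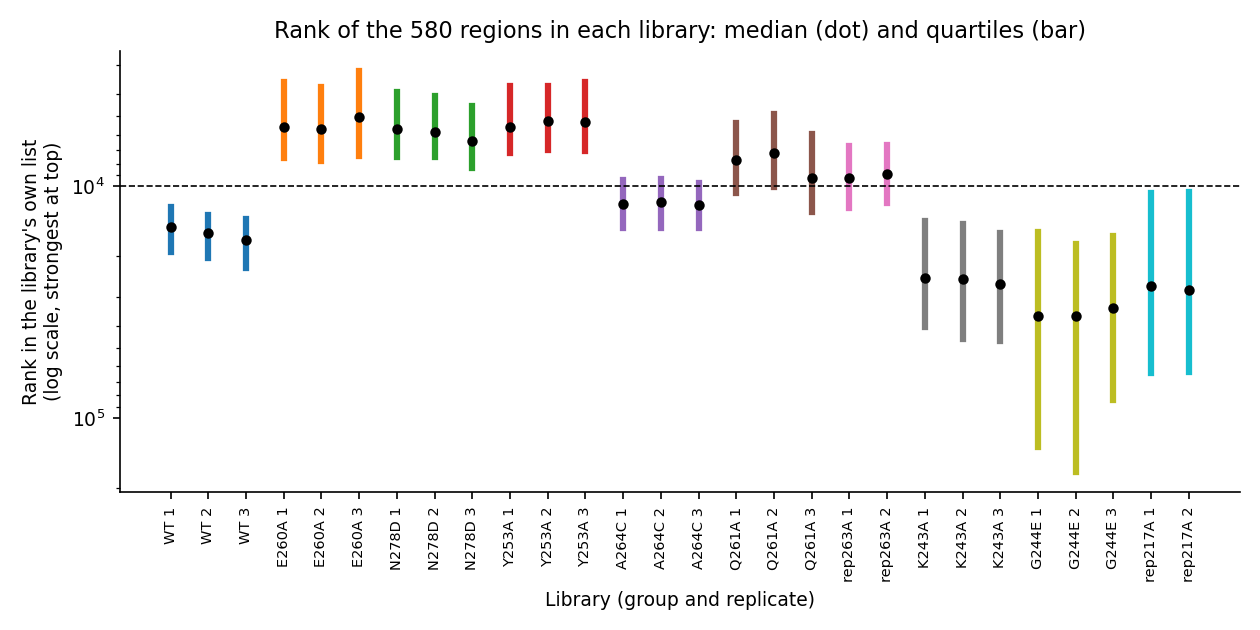
Rank of the 580 regions in each library of every group except Empty (log scale, strongest at the top); dots are medians, bars span the quartiles and the dashed line marks rank 10000. Medians lie between 5054.5 and 6406 in E260A, N278D and Y253A, between 15052 and 17080 in WT, between 11776 and 12030 in A264C and between 7176.5 and 9206.5 in Q261A.

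Libraries differed widely in depth, which the fold enrichment and p of each peak reveal as the commonest background pileup. This was 1.15 ± 0.0637 (SD, n = 3) in WT, 0.895 to 1.27 on average in A264C, E260A, N278D and Y253A, 0.774 ± 0.0985 in Q261A, and 0.457 in rep263A. It was 0.312 in rep217A, 0.178 in K243A, 0.129 in G244E and 0.03 in Empty. The weakest strong peak had a −log10 q of 77.0 to 132.6 in the 6 deepest groups, 9.74 to 22.3 in K243A, G244E and rep217A, and 1.63 to 1.87 in Empty. Strong peaks of the shallow groups thus rest on lower pileups. In the 3 Empty libraries 16400, 14791 and 13656 peaks were tied at the −log10 q of the weakest strong peak. Fold and then position decided which of these counted as strong, so the Empty shares and ranks below rest partly on ties.

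Reduced versions of the rule, in which a variant was left out and at least 5 of the 6 remaining lists were required, show how the left-out variant compares. Without E260A, 873 intervals were found, and 70.45 to 72.85% of them were strong in the 3 E260A libraries, where 62.7% of all 14301 intervals were. On the same 873 the shares were 46.28 to 64.6% in Q261A and 20.85 to 24.63% in A264C. Without N278D, 896 were found, and 65.18 to 72.1% of them were strong in the N278D libraries, against 62.0% of all intervals, with Q261A at 49.89 to 65.74%. The left-out N278D thus overlapped Q261A and lay little above its share of all intervals. The shares of all intervals have an unlike base, since only 4534 of the 14301 lacked a strong WT peak, as all intervals found here did. Without Y253A, 754 were found, and 81.3 to 85.68% of them were strong in the Y253A libraries, against 60.7% of all intervals and 50.66 to 70.56% in Q261A. With a WT library left out, 741, 646 and 627 intervals were found for replicates 1, 2 and 3. The share strong in the left-out library was 21.73% for replicate 1, 10.22% for replicate 2 and 7.496% for replicate 3. Of all intervals 60.8%, 58.4% and 56.5% were strong in these libraries. A264C held 34.82 to 40.49%, 30.34 to 35.91% and 29.67 to 34.77% of the intervals found. All of these were required to lack a strong peak in the remaining WT libraries, so low shares follow in part from the rule.

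The variants outside the rule differed in their shares, with overlap between the Q261A and rep263A libraries. In Q261A, whose residue adjoins that of E260A, 403, 434 and 325 of the 580 regions held a strong peak (66.8 ± 9.68%, SD, n = 3). In rep263A the numbers were 323 and 351 (58.1 ± 3.41%, n = 2). A264C had 181, 187 and 155 (30.1 ± 2.93%, n = 3). Every Q261A and rep263A library lay above every A264C library, and Q261A replicate 3 was the lowest of its group. Among the 3954 other intervals the shares were 19.6% in Q261A, 19.2% in rep263A and 5.89% in A264C, and among all 14301 intervals they were 59.7%, 60.8% and 59.9%. Q261A and rep263A thus lay near their share of all intervals on the region set, and A264C lay below it.

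Far fewer regions were strong in the shallow groups. The counts were 136 and 138 in rep217A (23.6%), 82, 70 and 71 in G244E (12.8%), 78, 74 and 59 in K243A (12.1%), and 48, 41 and 42 in Empty (7.53%). Among the 3954 other intervals the shares were 17.9%, 15.2%, 12.2% and 11.1% in that order, and among all intervals 44.5%, 45.3%, 49.6% and 28.1%. In G244E and Empty the region set thus lay below these other intervals, in K243A it lay within the spread of the libraries, and in rep217A it lay above. In rep217A 111 regions were strong in both libraries (19.1%, against 13.1% of the other intervals and 37.9% of all). In all 3 libraries of a group 36 were strong in G244E (6.21%, against 6.50% and 33.5%), 31 in K243A (5.34%, against 3.64% and 36.8%) and 6 in Empty (1.03%, against 1.49% and 10.7%). Depth moves with these groups, and its part in the low counts was not tested.

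**Figure D2:**
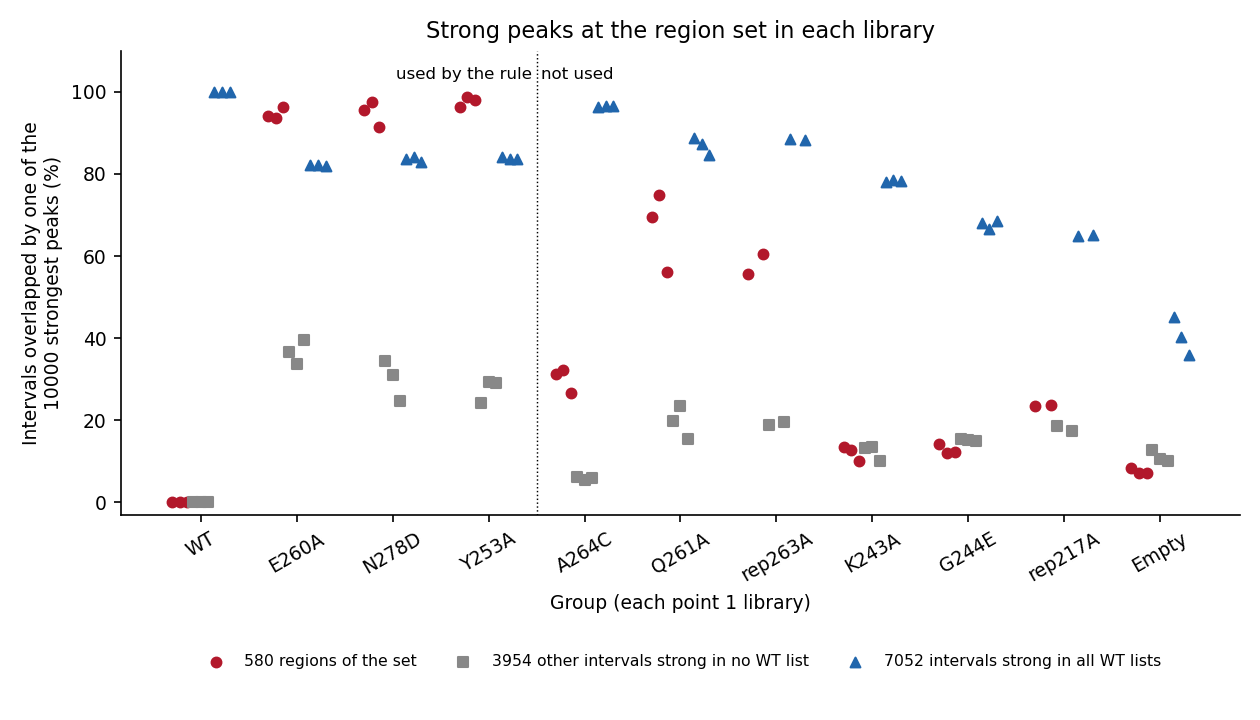
Percent of intervals overlapped by a strong peak, 1 point per library, for the 580 regions, the 3954 other intervals strong in no WT list and the 7052 intervals strong in all WT lists. WT, E260A, N278D and Y253A were used by the rule; outside it the 580 regions reach 56.0 to 74.8% in Q261A and 26.7 to 32.2% in A264C.

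Region by region, 269 of the 580 were strong in all 3 Q261A libraries (46.4%), where 6.65% of the 3954 other intervals and 47.0% of all 14301 intervals were. In rep263A 256 were strong in both libraries (44.1%, against 9.23% of the other intervals and 52.5% of all). In A264C only 81 were strong in all 3 libraries (14.0%, against 1.19% of the other intervals and 51.7% of all), and 297 were strong in none. In all libraries of both Q261A and rep263A 157 regions were strong (27.1%, against 1.97% of the other intervals and 41.4% of all). For 42 of these no A264C library was strong (7.24%, against 0.961% and 0.713%).

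A further 29 regions were strong in no library of any other group, Empty included (5%, against 30% of the other intervals and 8.99% of all). Such regions were thus a smaller share of the set than of either comparison, and 3 of them are described, chosen after their values were seen. The first lay in MET, the receptor of hepatocyte growth factor, at chr7:116708629-116709300, where the WT ranks were 27096, 31466 and 30791 and the Y253A ranks 3503, 3808 and 3598. E260A ranked 10241, 7693 and 6019 there, so its replicate 1 was not strong. The Q261A ranks at MET were 11282, 15964 and 14134, short of 10000 in all 3. The region in RASGRF1, a Ras exchange factor, at chr15:79032408-79033201 had WT ranks of 54931, 50747 and 84608 against 3311, 4243 and 2255 in E260A. The region nearest PROK1, a secreted prokineticin, at chr1:110433580-110434358 had WT ranks of 43353, 36767 and 58386 against 2452, 3726 and 3633 in Y253A. N278D ranked 4437, 5727 and 10895 there, so its replicate 3 was not strong. In the comparisons with A264C described next, PROK1 was higher in Q261A by 0.85 (limma adjusted p = 0.0134). RASGRF1 was higher in rep263A by 1.18 (limma adjusted p = 0.022). The lack of a strong peak in other groups thus did not set these regions apart from all of them.

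The 5 variant groups that the rule did not use were each compared with A264C, the deepest of those outside it, by limma on normal scores of the ranks over all 14301 intervals, with Benjamini-Hochberg adjustment and a threshold of 0.05. A difference of 1 is 1 standard deviation of the rank distribution, and a positive sign means a stronger rank than in A264C. The 5 comparisons share the A264C libraries and are therefore not independent. A264C also held the most WT intervals, with 96.4 to 96.6% of the 7052 intervals strong in all WT lists. Q261A held 84.6 to 88.8% of these and rep263A 88.3 and 88.6%. The set was chosen for lacking strong WT peaks, so a rank above that in A264C is not independent of the rule. Depth differed too, with a background pileup of 1.27 in A264C, 0.774 in Q261A and 0.457 in rep263A. Its part in the Q261A and rep263A calls was not tested.

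Q261A minus A264C gave 198 of the 580 regions higher and 2 lower, where 6.31% of all intervals were higher and 6.88% lower. Of the 3954 other intervals 13.5% were higher. The median difference over the regions was 0.54, with 506 of 580 above 0, and over all intervals it was 0.00. At an unadjusted p under the threshold 298 regions were higher. The 2 lower regions lay in RNF122 and nearest NT5M. The count was 55 to 99 when a replicate number was left out of every group, 9 when ranks were taken from fold enrichment (81 over all intervals) and 39 over the 33097 intervals merged from all groups (228 over all).

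rep263A minus A264C gave 57 regions higher and 4 lower, against 2.19% and 4.13% of all intervals. Of the 3954 other intervals 4.755% were higher and 1.11% lower. The median difference was 0.37, with 459 of 580 above 0. Without replicate number 1, or without number 2, a single rep263A library remained, its spread taken to be that of the other variants, and limma called 0 regions higher, with 123 and 105 at an unadjusted p under the threshold. Without number 3 the count was 32, and with fold enrichment ranked it was 3. The difference between Q261A and rep263A was not tested.

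The 3 shallow variants lay lower than A264C or level with it. K243A minus A264C gave 48 regions higher and 142 lower, against 13.4% and 14.5% of all intervals, with a median difference of -0.25. G244E minus A264C gave 83 higher and 184 lower, against 23.7% and 22.2%, with a median of -0.21. rep217A minus A264C gave 136 higher and 144 lower, against 21.0% and 21.9%, with a median of -0.03. In all 3 the share of regions called lower exceeded the share over all intervals, and in K243A and G244E the share called higher fell short of it. Of the 3954 other intervals 21.3%, 37.6% and 34.55% were higher in K243A, G244E and rep217A, and 6.12%, 7.44% and 7.46% lower. Beside these, the share of regions called higher fell short in all 3, at 23.45% in rep217A. With fold enrichment ranked, 47.9%, 49.7% and 39.1% of the regions were lower in K243A, G244E and rep217A, and rep217A had 120 regions higher and 227 lower. The background pileup was 0.312 or less in these groups and 1.27 in A264C, and its part in these calls was not tested.

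**Figure D3:**
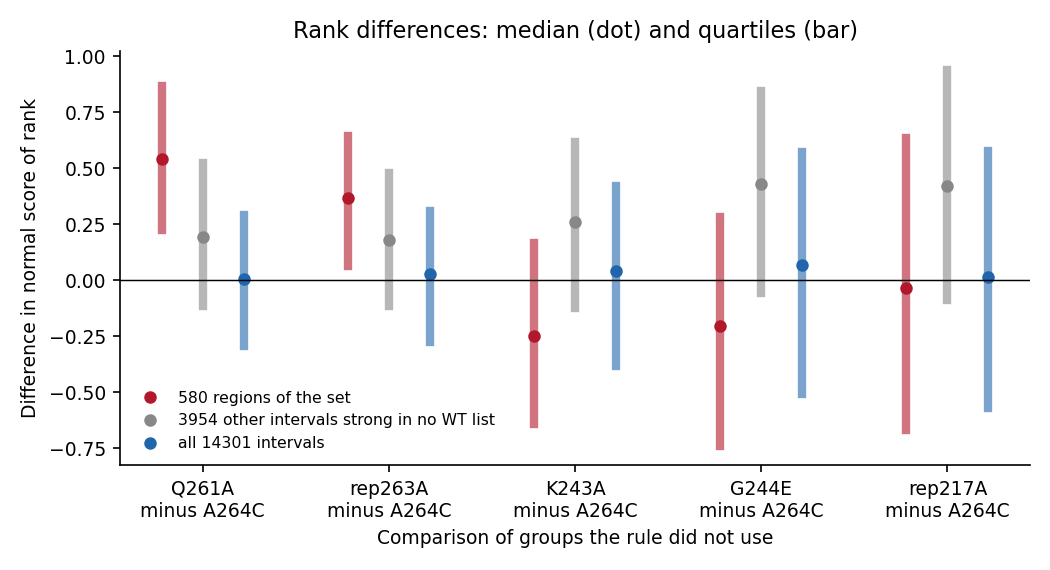
Difference in the normal score of rank for each group minus A264C, as medians (dots) and quartiles (bars) over the 580 regions, the 3954 other intervals strong in no WT list and all 14301 intervals. The regions sit at a median of 0.54 in Q261A and 0.37 in rep263A and at -0.25 and -0.21 in K243A and G244E.

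The strongest regions of the set lay in or between genes of varied function. Named by the protein-coding gene with the nearest end or by the gene they lie in, the 20 of lowest median variant rank were 2 in CFAP61, 1 in and 1 near PRDM15, and single regions in DCLK1, TNS1, TFEB, MYO5A, SLC6A17, SIPA1L3 and WASF3 and nearest to TMEM235, LOC112267968, LOC124903470, SH3BGRL2, VAPA, PRKACB, NAB1, MYCN and SETD4. On the gene lists used below, MYO5A stands among the pigmentation genes and TFEB among the relatives of MITF, and none of the others is listed. Those outside genes lay from 4364 bp (LOC112267968) to 369319 bp (SETD4) away from the nearest gene end. A region's nearest gene is a matter of position, and its expression was not measured in these libraries.

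The top region, at chr17:78272394-78273025 and 31407 bp from the nearest end of TMEM235, had ranks of 120, 270 and 104 in E260A, 936, 1211 and 1412 in N278D, and 536, 335 and 300 in Y253A. Its WT ranks were 15092, 15878 and 13690. A264C stood between them at 7720, 6236 and 7843, and Q261A at 2874, 3998 and 5946 did not overlap A264C. The difference of Q261A from A264C was 0.50 ± 0.23 (SE) and did not pass the threshold (limma adjusted p = 0.163).

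The region in DCLK1, a microtubule-associated kinase, at chr13:36031579-36032093 had WT ranks of 14293, 15757 and 27941 and Y253A ranks of 587, 643 and 606. In A264C it ranked 10471, 8175 and 8620 and in Q261A 1705, 1398 and 4545, without overlap. Q261A was higher by 1.17 ± 0.23 (SE; limma adjusted p = 0.00216). The call was lost with fold enrichment ranked, where the difference was 0.74, and without replicate number 1 or 2.

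The regions in TNS1 and WASF3 showed ranks that did not overlap between WT, A264C and Q261A. The region in TNS1, which encodes the focal adhesion protein tensin, at chr2:217905193-217905947 had E260A ranks of 765, 573 and 509 against 18105, 14994 and 14557 in WT. With Q261A at 1495, 2344 and 3704 and A264C at 5476, 8436 and 10099, Q261A was higher by 0.99 ± 0.25 (SE; limma adjusted p = 0.0107). That call was lost with fold enrichment ranked, where the difference was 0.48, and without any 1 of the 3 replicate numbers. The region in WASF3, a promoter of actin nucleation, at chr13:26658422-26659330 had Y253A ranks of 516, 524 and 385 against 24291, 38573 and 30068 in WT. No A264C library was strong there, at 17001, 23037 and 13834, while Q261A ranked 6284, 8191 and 4862, a difference of 1.33 ± 0.25 (SE; limma adjusted p = 0.00173), and this call was lost with fold enrichment ranked (0.78).

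The region in TFEB, whose protein is a relative of MITF and the master regulator of lysosome genes, lay at chr6:41720006-41720877, 15346 bp from a gene end. Its ranks were 11403, 12624 and 14757 in WT, 478, 484 and 1719 in E260A, 4863, 2654 and 6707 in N278D, and 320, 815 and 359 in Y253A. N278D was thus the weakest of the 3, and its values overlapped those of A264C at 4057, 4550 and 4302. In fold enrichment the region stood at 13.3, 13.2 and 12.1 in WT and at 11.8, 13.8 and 10.8 in N278D, so N278D was not higher on that scale. E260A had folds of 15.2, 15.2 and 12.1, and Y253A of 14.2, 12.4 and 13.3, both overlapping WT. Q261A did not pass the threshold against A264C there (0.30 ± 0.23, SE; limma adjusted p = 0.449).

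The region in MYO5A, the motor protein that carries melanosomes along actin, lay at chr15:52520062-52520758, 8292 bp from a gene end, and stood at the very edge of the rule. Its WT ranks were 11233, 10027 and 10206, so 2 of the 3 WT libraries missed the strong list by a narrow margin. The Y253A ranks were 551, 694 and 331, and the A264C ranks 5668, 6951 and 6936. Q261A ranked 2845, 3147 and 3985, a difference from A264C of 0.56 ± 0.21 (SE) that did not pass the threshold (limma adjusted p = 0.0778).

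The region nearest MYCN, a MYC family oncogene whose protein also binds E-boxes, lay at chr2:16006048-16006923, 59044 bp from the gene end. Its WT ranks were 14080, 13312 and 18593 and its E260A ranks 1131, 472 and 803. It ranked 140 and 81 in rep217A, ahead of its rank in any library of the rule. Its folds of 23.7 and 25.4 there lay within the 18.7 to 26.8 of E260A, N278D and Y253A. It ranked 1736, 1486 and 1551 in Q261A against 7098, 6020 and 5258 in A264C. Q261A was higher by 0.96 ± 0.20 (SE; limma adjusted p = 0.00351), a call that was lost with fold enrichment ranked (0.41) and without replicate number 1 or 2. K243A, at 22370, 33422 and 36696, was not strong there.

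**Figure D4:**
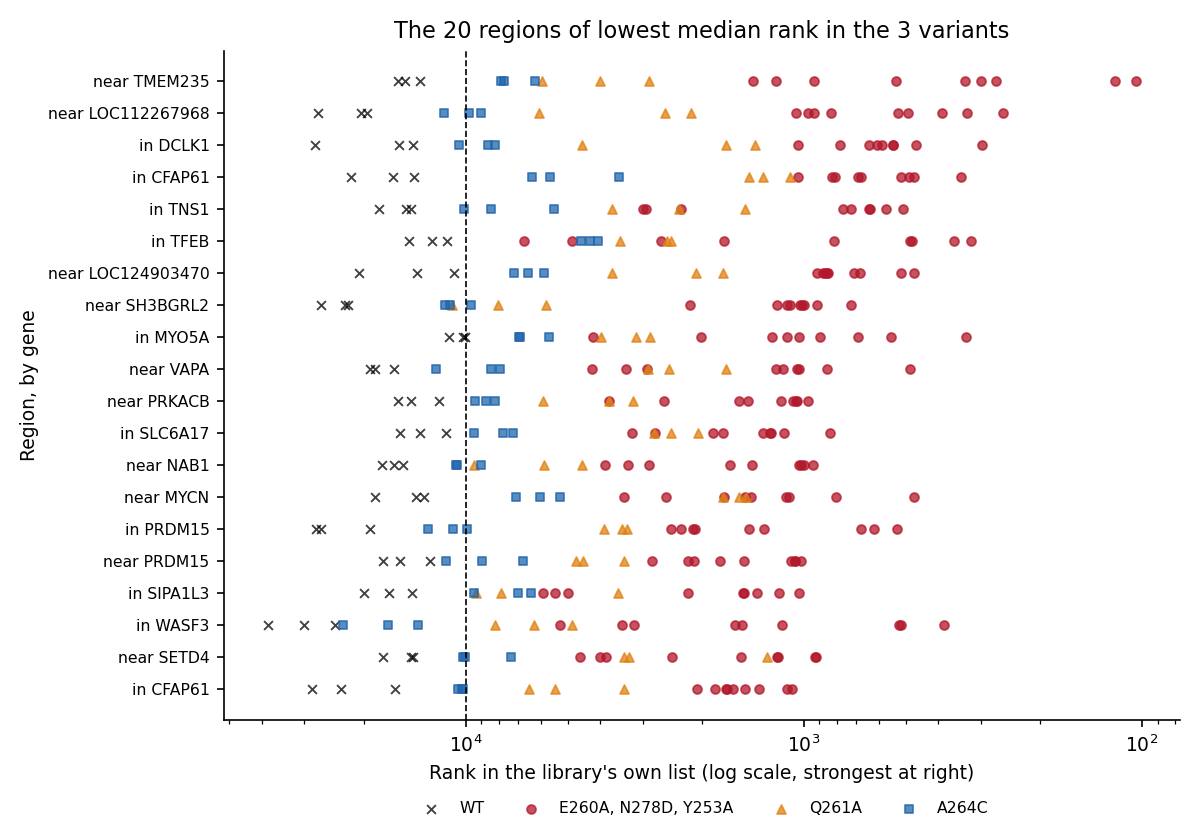
Ranks of the 20 regions of lowest median variant rank in the WT, E260A, N278D, Y253A, Q261A and A264C libraries (log scale, strongest at the right; dashed line at rank 10000). WT crosses lie left of the line in every row, and in the DCLK1 and WASF3 rows all Q261A triangles lie to the right of all A264C squares.

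The 5 largest differences between Q261A and A264C lay at regions that were strong in no A264C library. They were found in FSTL4, MYLK, SPATA13, ANKS1A and MCF2L2. FSTL4 encodes a follistatin-like secreted protein, and its region at chr5:133245288-133245878 ranked 40959, 67881 and 52878 in WT, 21709, 19682 and 27179 in A264C, and 2519, 3055 and 6073 in Q261A. The difference was 2.15 ± 0.24 (SE; limma adjusted p = 2.12e-05), and it was 1.11 and still called with fold enrichment ranked. In N278D the same region ranked 8255, 9856 and 11396, and in rep263A 24919 and 17858, so rep263A was not strong there.

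MYLK encodes the myosin light chain kinase, and its region at chr3:123791084-123791785 ranked 15714, 17472 and 11447 in A264C and 3021, 1308 and 2070 in Q261A, a difference of 1.93 ± 0.26 (SE; limma adjusted p = 8.88e-05). The Q261A values were below the E260A ranks of 3368, 3123 and 5351. ANKS1A and MCF2L2 gave differences of 1.71 and 1.65.

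Several regions were among the strongest of Q261A itself. By median rank in Q261A, those strong in all 3 of its libraries were led by regions in DHX35, CFAP61, UVSSA, SLIT3, DCLK1 and PCSK6 and by regions nearest MYCN, CACNA1H, CITED4 and KCNQ5. The region in SLIT3, a guidance ligand, at chr5:168794050-168794902 showed uneven levels within the rule, with 342, 230 and 267 in E260A but 6426, 8243 and 7505 in N278D and 3974, 4899 and 6422 in Y253A. Q261A ranked 1124, 1427 and 2878 there, nearer to E260A, against 8925, 8036 and 11495 in A264C (difference 1.41 ± 0.24, SE; limma adjusted p = 0.00073). With fold enrichment ranked the difference was 0.43 and not called. The region in UVSSA, a factor of transcription-coupled DNA repair, ranked 1838, 1385 and 1748 in Q261A, ahead of the ranks of 5309, 4877 and 3359 in Y253A. The region nearest CACNA1H, a T-type calcium channel, was strong in all 3 G244E libraries at 7251, 4646 and 5415 and was not listed in rep217A.

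Strong peaks in both K243A and G244E were an exception in the set. They were found in all libraries of both groups at 16 regions (2.76%, against 1.75% of the other intervals and 26.9% of all), among them regions in TLE3, a Groucho-type corepressor, PAQR8, a progestin receptor, and MLLT1, a subunit of the super elongation complex. In TLE3 the ranks were 11230, 10102 and 11423 in WT and 4416, 5674 and 6055 in Q261A, and G244E was higher than A264C by 1.82 ± 0.18 (SE; limma adjusted p = 4.49e-07). The region nearest RFC3, a clamp loader subunit, lay 179408 bp from the gene's end. It ranked 1629, 1079 and 1341 in G244E, which was 2.05 ± 0.22 (SE) above A264C (limma adjusted p = 7.30e-07). These 4 regions were picked after their values were seen. Those in TLE3 and MLLT1 were strong in 1 Empty library each, and those in PAQR8 and nearest RFC3 in no Empty library. Others of the 16, in ARHGEF17 and ING1 and nearest BRSK2 and MAGI3, were strong in all 3 Empty libraries, as only 6 of the 580 were. No region was strong in every library of all 6 variants outside the rule.

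The set lay away from gene starts. Distances to starts were computed for 560 of the 580 regions, since those on chromosome 8 were not analysed here. Only 50 of the 560 (8.93%) lay within 1 kb of a protein-coding start, against 38.7% of the WT intervals, 14.6% of the other intervals strong in no WT list and 29.5% of all. Beyond 50 kb from any such start lay 240 regions (42.9%). Of all 580, 287 had their centre inside a gene (49.5%), against 57.9% of the WT intervals. The position of the set was thus closer to that of the other intervals without a strong WT peak than to that of the WT intervals.

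The few regions at starts behaved differently in K243A and G244E. Of the 50 regions within 1 kb of a start, 32 to 46% were strong in the 3 K243A libraries, against 8.50 to 12.2% of the 247 regions inside genes and 7.61 to 10.3% of the 263 outside. In G244E the shares were 38 to 44%, 9.31 to 12.5% and 6.46 to 9.89%. In Q261A the order was not the same, with 36 to 72% at starts, 55.9 to 72.9% inside genes and 58.9 to 78.0% outside. The 3954 other intervals showed the same split in K243A, with 26.6 to 40% at starts and 7.12 to 9.17% inside genes, so the split was not particular to the set. In rep217A the gap was small, with 28 to 30% at starts, 21.5 to 23.1% inside genes and 22.8 to 24.0% outside. Empty libraries were strong at 12 to 22% of the 50, at 2.43 to 7.29% inside genes and at 7.22 to 10.7% outside. The control thus also had its highest shares at starts.

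**Figure D5:**
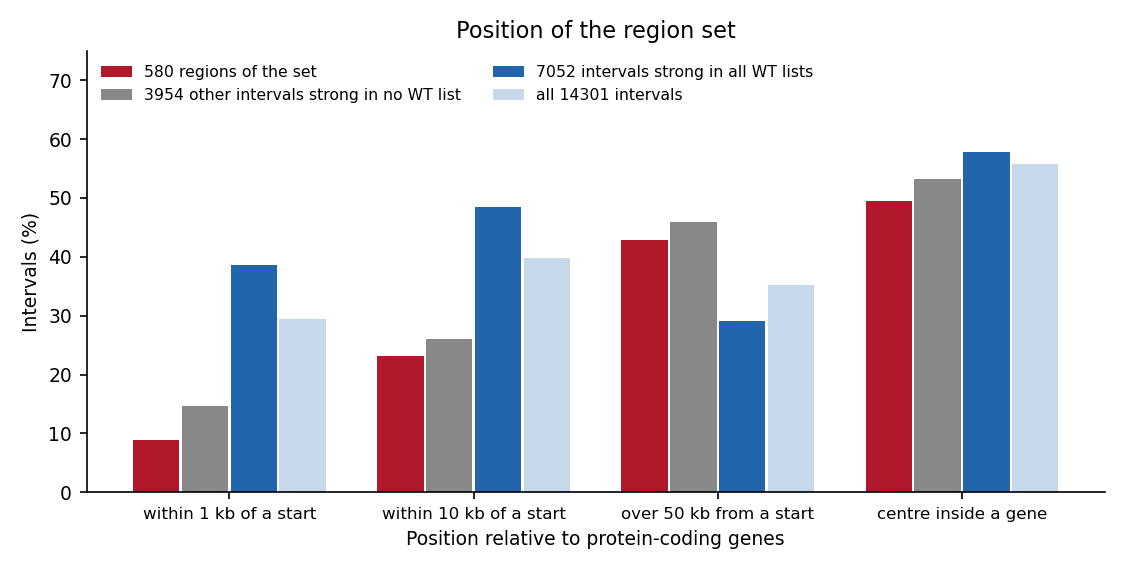
Percent of the 580 regions, the 3954 other intervals strong in no WT list, the 7052 intervals strong in all WT lists and all 14301 intervals by position relative to protein-coding genes; regions on chromosome 8 are left out of the distances to starts. The region set has 8.93% within 1 kb of a start and 42.9% beyond 50 kb.

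Few genes of the 19 gene lists, and few of all protein-coding genes, had a region near a gene end. Within 5 kb of a gene end, 0 of 16 pigmentation genes, 0 of 22 lysosome genes, 0 of 16 V-ATPase genes and 0 of 20 autophagy genes had a region of the set, where 155 of 19974 protein-coding genes had (0.776%). Against that background lists of this length can be empty, so these counts of 0 are no result about the lists. WT intervals lay as near to 12 of 16, 17 of 22, 14 of 16 and 10 of 20 of the same genes, and to 21.8% of all protein-coding genes. In all, 3 of 275 listed genes had a region of the set within 5 kb, and these were CCND1, SCD and CD3E. At 20 kb the count was 13, against 406 of the 19974. In neither window was the share of listed genes below that of all protein-coding genes. Distance was taken to gene ends only, so the regions in MYO5A (8292 bp) and TFEB (15346 bp) did not count within 5 kb.

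CCND1 encodes cyclin D1, which drives entry into the cell cycle, and its region at chr11:69638959-69639524, 1632 bp from the gene end, ranked 14970, 22801 and 26937 in WT and 6036, 4165 and 3195 in Y253A. In E260A it ranked 8048, 8076 and 7176. A264C, at 17110, 18879 and 17186, was not strong there, and neither were 2 of the 3 Q261A libraries, at 7699, 11915 and 21720 (difference 0.49 ± 0.27, SE; limma adjusted p = 0.258). SCD encodes the desaturase that makes monounsaturated fatty acids, and its region at chr10:100346372-100347465 overlapped the gene itself. It ranked 14064, 16124 and 12306 in WT and 3439, 5097 and 7400 in Y253A, with Q261A at 7018, 9672 and 5952 against 10602, 12676 and 12446 in A264C (difference 0.59 ± 0.25, SE; limma adjusted p = 0.131). In fold enrichment the variants overlapped WT, with 12.7, 11.3 and 12.4 in WT, 11.97, 10.6 and 10.7 in E260A, 11.8, 10.7 and 11.5 in N278D, and 13.3, 12.3 and 10.7 in Y253A.

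CD3E, a subunit of the T cell receptor complex, had a region 342 bp from its end at chr11:118316515-118317261. The E260A ranks were 4591, 2716 and 3576 and the WT ranks 10298, 14241 and 11603. It was also strong in all 3 G244E libraries and in Empty replicate 3, at a rank of 3482. In that Empty list 13656 peaks were tied at the cut. The other markers of lymphoid cells, 11 of 12, had no region within 5 kb, nor had any of the 12 hepatocyte, 12 keratinocyte or 12 neuronal markers.

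The regions were spread over many genes. They had 534 distinct nearest protein-coding genes, and 82 of the 580 (14.1%) had another region of the set within 100 kb. The longest run was of 4 regions between positions 327151 and 388592 of chromosome 16, by AXIN1, a scaffold of the Wnt pathway's destruction complex, MRPL28 and PGAP6. Runs of 3 lay in PRKAG2, a regulatory subunit of the energy sensor AMPK, and by SLC9A8, a sodium-proton exchanger of the Golgi. DHX35 and SEMA5A were also the nearest gene of 3 regions each. By chromosome, the set took 8.81% of the intervals on chromosome 21, 6.86% on chromosome 13 and 2.61% on chromosome 12, against 4.06% over all.

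The runs and the sequences shown above meet at SLC9A8 and PRKAG2, where a region of the run held a CATGTG word before the start. The SLC9A8 region at chr20:49812011-49813376 had a median rank of 11904 in WT, 5744 in the 3 variants and 7419 in Q261A. The PRKAG2 region at chr7:151735752-151736896 had a median rank of 15687 in WT, 6015 in the 3 variants and 5463 in Q261A. A neighbour in PRKAG2 at chr7:151727457-151728319 was higher in Q261A than in A264C by 1.10 (limma adjusted p = 0.00654), while the region with the word was not called (limma adjusted p = 0.232). The region at TM4SF19, whose sequence holds CACATG, was higher in Q261A by 0.60 (limma adjusted p = 0.044). The region that holds the CACGTG word of LOC124907995 had a median rank of 28963 in WT and 3585 in the variants and was strong in all Q261A and rep263A libraries and in no A264C library.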

How the data were processed

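Peak lists of 33 CUT&Tag libraries were used as the authors deposited them. Per the submitters' processing notes, reads were demultiplexed with bcl2fastq 2.20.0.422, aligned to hg38 with Bowtie2 2.3.4.3 and peaks called with MACS2; its version, control and settings are not given in the sources used here. Each deposited list holds a fold enrichment (a ratio), a −log10 p and a −log10 q per peak, called per library. No read counts were used.

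The members and gene lists were chosen with earlier results of these data known. Scripts (Python 3.11.15, pandas 2.3.3) took the 10000 peaks of highest −log10 q per library, ties by fold and then position, and merged those of WT, E260A, N278D and Y253A. Distances came from RefSeq gene coordinates (GRCh38.p14, the build of the files). For each of 14301 intervals the highest −log10 q per library was ranked, turned into a normal score and fitted with limma 3.58.1 (R 4.3.3) over 16 libraries of 6 variants outside the rule, an interval without a peak taking the lowest rank; no sample was imputed. The script was tested on simulated data. Depth was read as the background pileup that fold and p imply.

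Regions named are the 20 of lowest median variant rank, 10 of lowest Q261A rank strong in all 3 libraries, 5 with the largest Q261A difference, and those within 5 kb of a listed gene. Alternatives tried were other list lengths, rankings, overlaps, numbers of lists, scalings and filters, a replicate block and leaving out replicates. The planned word counts were made in promoter windows only; windows on chromosome 8 and other genome sequence were not used here.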

Additional observations from a re-analysis of the deposited data

How the results depend on the processing

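The region set had 363 members with 5000 strong peaks per list, 908 with 20000, 357 when all 9 variant lists were required and 88 when no WT peak was allowed among 20000. Without a replicate number in every group it had between 819 and 930 members, which include the 580 by the construction of the reduced rule.

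Of the 580 regions, 34.1% were higher in Q261A and 9.83% in rep263A, and 24.5%, 31.7% and 24.8% were lower in K243A, G244E and rep217A. Ranking by fold moved these shares to 1.55%, 0.517%, 47.9%, 49.7% and 39.1% in that order. Ranking over the 33097 intervals of all groups gave 6.72%, 0.862%, 40%, 55% and 44.0%, and moved the median difference over all intervals in G244E from 0.07 to 0.18. Fitting only the groups compared gave 18.97% in rep263A. Leaving out a replicate number gave 9.48 to 17.1% in Q261A, 0 to 5.52% in rep263A, 11.6 to 17.4% in K243A, 21.9 to 24.3% in G244E and 11.9 to 23.6% in rep217A, with fewer libraries in each fit. Without Q261A replicate 3, an alternative chosen after seeing the data, 27.6% were higher in Q261A. The replicate block gave 34.3%, 7.93%, 25%, 32.2% and 25.7%. The numbers did not pair the samples, since in none of 15 pairs of groups did every same-numbered correlation exceed 0.1 (lowest -0.0286, highest 0.205).

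With 20000 strong peaks per list, 74.81% of the intervals found without E260A were strong in E260A, against 70.9%. Listed genes with a region within 20 kb numbered 13, against 3 within 5 kb. Of the 35 named regions, 26 were higher in Q261A, against 34.1% of the whole set. Some of the 35 were named for their Q261A rank or for this very call, so 26 is no result about them. Over the 208 alternative values of the 26, the call was kept in 142 and lost in 66, 22 of these with fold ranked. Over the 72 alternative values of the 9 uncalled regions, 6 became calls, and 2 uncalled differences changed sign, SH3BGRL2 from 0.36 to -0.0744 with fold ranked and SIPA1L3 from 0.14 to -0.0835 without replicate number 1 (-0.0835 to 0.34 over the 3 numbers left out). The cause was not tested. Shallow libraries limit the ranks in K243A, G244E, rep217A and Empty. Q261A and rep263A were also shallower than A264C, and the part of depth in their calls was not tested.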
